A study of Mus musculus with 6 samples.

Results

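The nuclear genes for subunits of respiratory complexes II to V were compared between hypoxic mouse cardiomyocytes with and without fibroblast growth factor 21 (FGF21). They were found by symbol: rows of the array's value table with a single gene symbol that starts with Uqcr, Atp5, Cox4, Cox5, Cox6, Cox7 or Cox8, or that is Cyc1, Sdha, Sdhb, Sdhc or Sdhd. This gave 48 of the 22180 genes measured, namely 4 of complex II, 8 of complex III, 17 of complex IV, 17 of complex V and 2 pseudogenes. Of 54 rows, the brightest was taken for the 6 genes with 2 rows each. Another 4 rows carry a symbol of this family together with that of a second gene and were not used. They include rows of Uqcr10 and Cox6c, which are therefore not among the 48 genes.

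The cells were cultured cardiomyocytes from hearts of 1-day-old C57BL/6 mice, freed of fast-attaching cells by pre-plating. The cells of all 6 samples spent 12 h in a gas of 2% O2, 5% CO2 and 93% N2. In the FGF21 group, the cells of 3 samples also received FGF21 at 1 µg/ml, and those of the 3 control samples did not. No culture at normal oxygen was compared here, so the values say nothing about what hypoxia did to these genes. The labels call the samples biological replicates without naming litters or cultures, so the p-values reflect only how these arrays vary, which may be technical variation. The series asked which genes FGF21 regulates in hypoxic cardiomyocytes.

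Complexes II to IV pass electrons from succinate and reduced ubiquinone to oxygen across the inner mitochondrial membrane, complexes III and IV pump protons as they do so, and complex V, the ATP synthase, uses the proton gradient to make ATP. Complex II is encoded in the nucleus alone, whereas complexes III, IV and V also hold subunits from mitochondrial DNA, not analysed here. The heart depends on this chain for most of its ATP, and several complex IV subunits have a form for heart and skeletal muscle beside the widely expressed one.

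Values are log2 intensities after robust multi-array averaging (RMA), 1 array per sample, and each difference is FGF21 minus control. Cardiomyocyte markers were among the brightest genes: 15 of 16 cardiomyocyte genes, Myh6 and Tnnt2 among them, were in the brightest 20% of all genes. So were 8 of 10 fibroblast, 5 of 8 smooth muscle and pericyte, 4 of 8 epicardial, 3 of 10 endothelial and 2 of 8 leukocyte markers. The mean of the cardiomyocyte list ran from 10.79 to 10.85 with FGF21 and from 10.80 to 10.95 in controls. The endothelial list mean ran from 7.08 to 7.34 with FGF21 and from 7.44 to 7.64 in controls, without overlap. Of its 10 genes, 7 were lower at an unadjusted p under 0.05, where 5.11% of all genes were. Epicardial markers stood at 7.89 to 8.05 against 7.79 to 7.89. These list means overlapped, with FGF21 replicate 1 at 7.887 and control replicate 2 at 7.894. Of the 8 epicardial genes, 4 were higher by that criterion, where 6.59% of all genes were. The part of these other cells in the values below was not tested. In RNA from whole cultures, fewer cells of a type and less RNA per cell cannot be told apart.

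No subunit gene passed limma's test over all genes (0 of 48 at an adjusted p under 0.05). Over all 22180 genes 0% were called as well, and 2 genes were called without FGF21 replicate 1. The smallest adjusted p among the 48 was 0.31. At an unadjusted p under 0.05 limma gave 4 of 48 genes (8.33%), against 11.7% of all genes. Of these, 1 was higher with FGF21, Cox7b, where 6.59% of all genes were, and 3 were lower, Cox6a2, Cox6b2 and the pseudogene Uqcrh-ps1, where 5.11% of all genes were. The count of 4 was 1 without FGF21 replicate 2 (2.08%, against 7.71% of all genes) and 6 without control replicate 2 (12.5%, against 12.2%). With limma's trended, robust variance prior it was 9 (18.8%, against 11.7% of all genes), so whether the share lies under or above the background depends on the setting.

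The differences were small. The median over the 48 genes was 0.04, with 27 above 0 and 21 below, and the extremes were -0.21 for Uqcrh-ps1 and 0.19 for Atp5mpl, a small membrane subunit of the ATP synthase. All genes had a median of -0.01, with 47.8% above 0. The subunit genes' median of 0.04 was 0.06 with each array centred on its own median, where all genes had 0.0144. With quantile normalization applied again it was 0.01, where all genes had -0.0018. In 39 of 48 genes the 95% interval lay inside a 1.25-fold change in either direction (81.2%, against 76.9% of all genes). The widest reach was a ratio of 1.33 for the pseudogene Atp5c1-ps and of 1.32 for Atp5mpl on the high side, and of 0.769 for Cox6b2 on the low side. For the genes outside the band, a change of over 1.25-fold was within the interval.

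**Figure D1:**
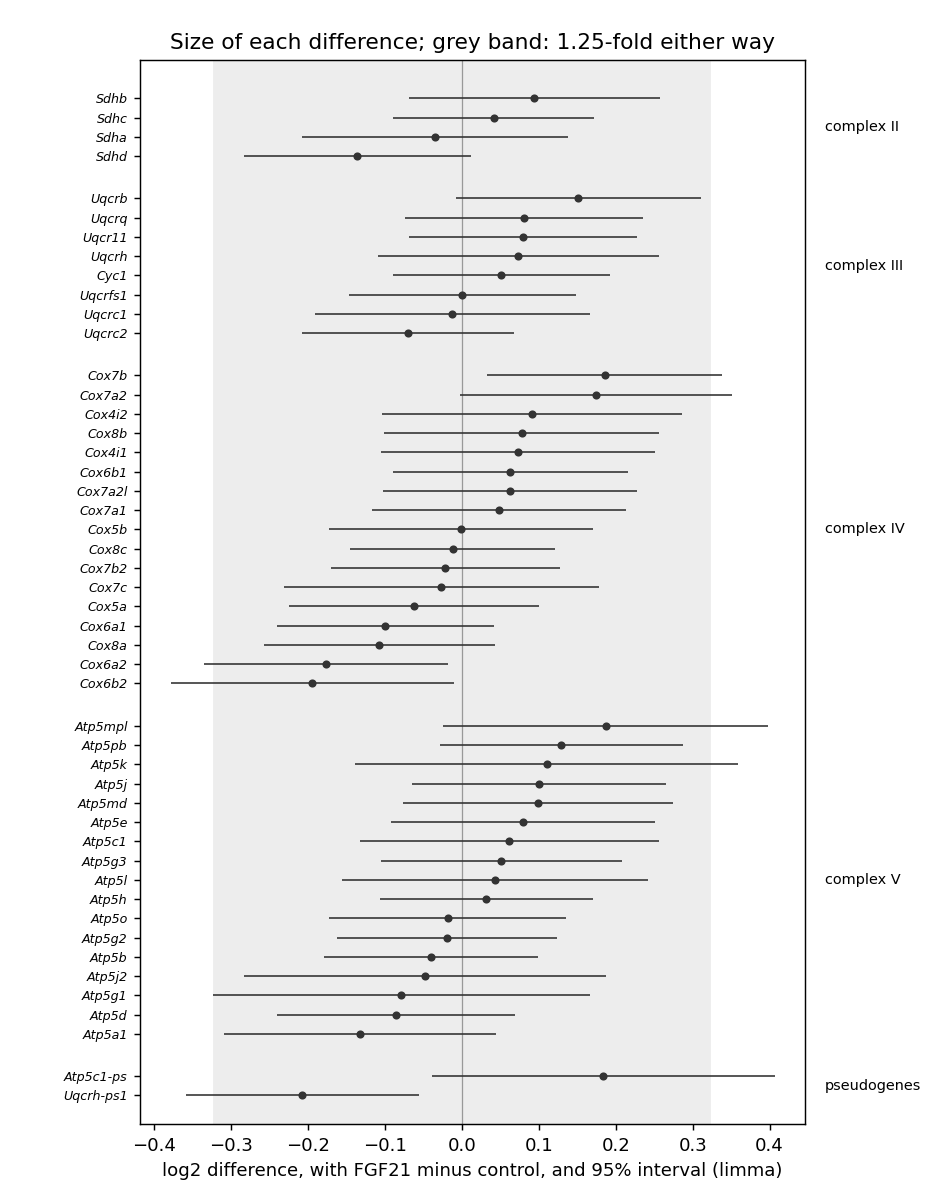
Log2 difference of each of the 48 genes (with FGF21 minus control, 3 arrays each), with limma's 95% interval, ordered by size within each complex. The grey band marks a 1.25-fold change either way; 39 of 48 intervals lie inside it, and those of Cox7b, Cox6a2, Cox6b2 and Uqcrh-ps1 do not reach 0.

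Levels are given beside these medians. Of the 48 genes, 33 were in the brightest 20% of all genes by mean level, where the median difference over 4436 genes was 0.05 and 16.2% had an unadjusted p under 0.05, 624 of them higher and 96 lower. The 33 had a median of 0.05, and 2 (6.06%) had such a p, Cox7b higher and Cox6a2 lower. Differences were above 0 for 20 of the 33 and for 3137 of the 4436. The part of brightness in the differences was not tested. At the other end, 5 of the 48 were dim, with means below the lowest array median of 5.76: Uqcrh-ps1, Cox7b2, Atp5c1-ps, Cox8c and Atp5j2. Whether these were above background was not tested.

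The groups did not overlap for 7 of 48 genes (14.6%, against 17.1% of all genes). Higher in all 3 FGF21 arrays than in any control were Cox7b, Cox7a2, Sdhc and Atp5pb (8.99% of all genes did so), and lower were Cox6a2, Sdhd and Uqcrh-ps1 (8.14% of all genes). These shares are near those of all genes. In the brightest 20%, 25.7% of genes were apart, 932 higher and 206 lower. Of the 33 subunit genes there, 18.2% were apart, 4 higher and 2 lower. The part of brightness in these shares was not tested. With 1 array left out, fewer arrays overlap less often: 10 of 48 genes were apart without FGF21 replicate 2 (24% of all genes) and 20 of 48 without FGF21 replicate 1 (32.8% of all genes), with the other arrays between or equal to these.

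**Figure D2:**
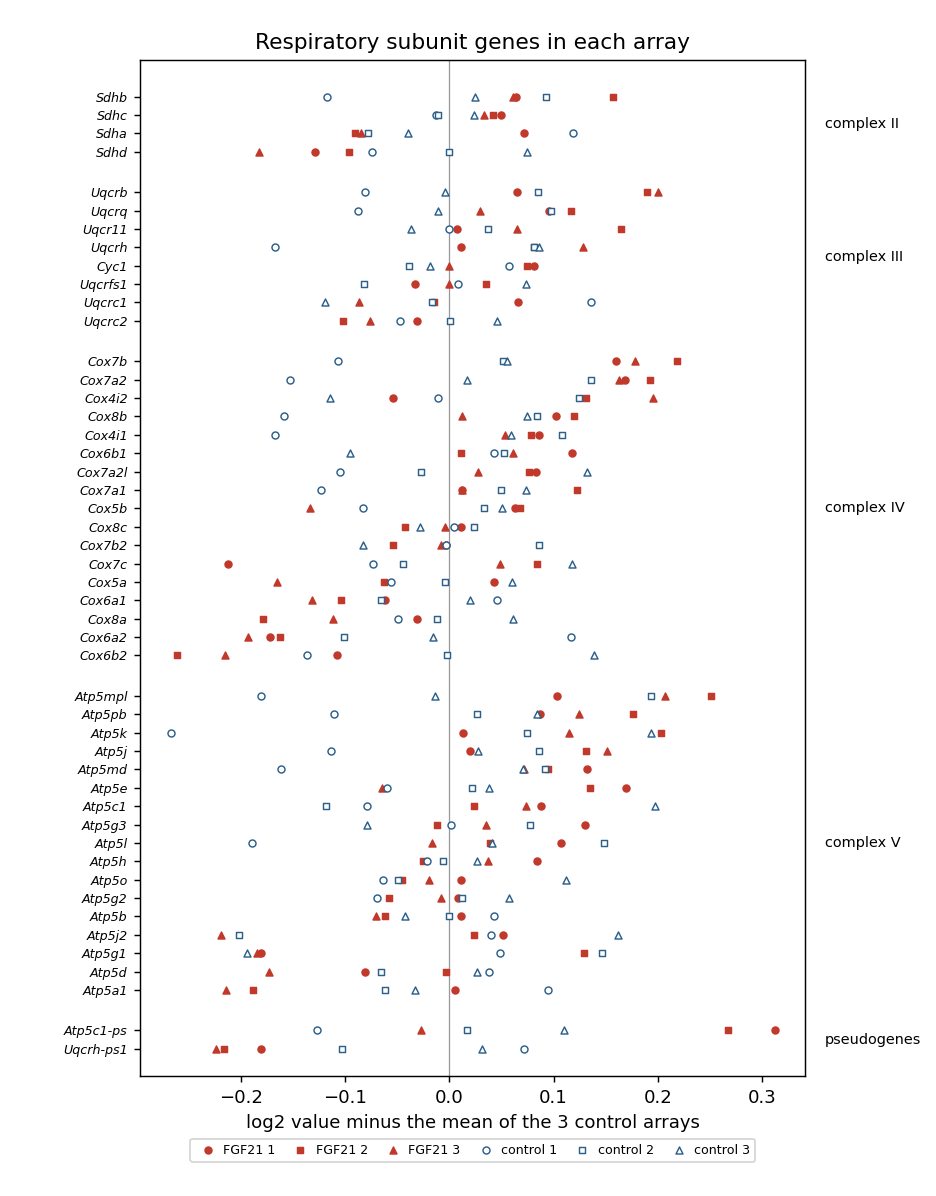
Log2 value of each gene in each array, minus the mean of the 3 control arrays; filled red symbols are FGF21 arrays, open blue symbols controls, and the shape gives the replicate number. Most genes have interleaved groups, and control replicate 1 (open circle) is the lowest of the 6 arrays for 20 of 48 genes (41.7%, against 18.3% of all genes).

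Promoter sequence was not used to choose the subunit genes. RefSeq promoter windows (GRCm38.p6, 250 bases before to 50 after the start site) were on hand for 35 of the 48 genes. The motif of NRF1, a factor known for driving respiratory genes, was searched as GCGCANGCG on both strands, and 12 of 35 genes held it (34.3%), against 7.03% of 27025 genes. The other 23 lacked it, and the difference in share was not tested. A longer form with a further C at its end, searched first, was in 10 of 35 (28.6%, against 5.19%). The windows of the subunit genes were also richer in G and C, with a median of 56.5% against 52.7%, and the part of base composition in the motif counts was not tested. For each of the 12 genes, 29 bases with 1 match are shown on the gene's strand, since this was the most frequent of the motifs searched among these genes, with the match in capitals. A match on the other strand reads CGCNTGCGC.
Sdha (chr13:74350277-74350305, minus strand): ggggcgtgttGCGCAGGCGcagaatcttc
Sdhd (chr9:50603910-50603938, minus strand): tcgctggggtGCGCACGCGcggtggcagc
Uqcrc1 (chr9:108936668-108936696, plus strand): actccgctctGCGCATGCGcagcgcggct
Uqcr11 (chr10:80406808-80406836, minus strand): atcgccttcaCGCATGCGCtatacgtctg
Cox6a1 (chr5:115349102-115349130, minus strand): caggaacgggGCGCATGCGcgctctcgct
Atp5c1 (chr2:10080431-10080459, minus strand): ctgagctcccGCGCACGCGcactgagtcc
Atp5g2 (chr15:102671071-102671099, minus strand): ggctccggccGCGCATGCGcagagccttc
Atp5g3 (chr2:73911295-73911323, minus strand): agccgcaccgCGCTTGCGCgcccagcccc
Atp5h (chr11:115420042-115420070, minus strand): gaccccgacgGCGCAGGCGccgcgcccgc
Atp5k (chr5:108434431-108434459, minus strand): tttcactgcgGCGCATGCGcctttctggc
Atp5l (chr9:44920964-44920992, minus strand): aaccaataaCGCATGCGCatttcccccac
Atp5o (chr16:91931602-91931630, minus strand): ctggcgcgcgCGCGTGCGCtctggcgcca

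The 12 genes with the motif had differences from -0.14 (Sdhd) to 0.11 (Atp5k), with a median of 0.01, and the 23 without it had a median of 0.05. Both signs occurred among the 12. Other motifs were rarer, each searched on both strands. CCGGAAGT, bound by GABP of the ETS family, was in 4 of 35 genes (11.4%, against 4.31% of all), namely Atp5h, Cox8a, Uqcr11 and Uqcrh. AAGATGGCG, bound by YY1, was in 2 (5.71%, against 1.64%), Atp5j and Atp5j2, and TCAAGGTCA, bound by ERR receptors, in 2 (5.71%, against 0.466%), Atp5g3 and Sdhd. The broad pattern CTANNNNTA, part of the MEF2 motif, was in 8 (22.9%, against 23.5%), and a longer form with a further G, searched first, was in 1, Cox5b (2.86%, against 4.23%). The short HIF core ACGTG was in 11 (31.4%, against 21.8%). A match to any of these patterns is a description of letters and not a bound site.

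Complex II, the succinate dehydrogenase that also works in the TCA cycle, was measured whole. Sdha, the flavoprotein that oxidises succinate, was at 10.97, 10.81 and 10.81 with FGF21 and 11.02, 10.82 and 10.86 without. Its groups overlapped, and the difference was -0.03 ± 0.08 (SE). Sdhb, the iron-sulfur subunit, stood at 9.61, 9.70 and 9.61 with FGF21 and 9.43, 9.64 and 9.57 without; control replicate 1 was the lowest array and the groups overlapped. Its difference was 0.09 ± 0.07 (SE), and 0.0353 without control replicate 1.

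For the 2 membrane anchors of complex II the groups did not overlap, in opposite directions. Sdhc was at 9.81, 9.80 and 9.80 with FGF21 and 9.75, 9.75 and 9.79 without, so all FGF21 arrays lay above the controls, though by only 0.04 ± 0.06 (SE). Sdhd was at 9.93, 9.96 and 9.87 with FGF21 and 9.98, 10.06 and 10.13 without, and all FGF21 arrays lay below the controls. Its difference was -0.14 ± 0.07 (SE), a ratio with a 95% interval of 0.822 to 1.01 and a limma adjusted p of 0.462. The median over the 4 subunits was 0.00.

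In complex III, which hands electrons from ubiquinol to cytochrome c, the catalytic and core subunits showed no common direction. Uqcrc1, a core protein of the matrix side, was at 10.04, 9.96 and 9.89 with FGF21 and 10.11, 9.96 and 9.86 without, and its difference of -0.01 turned to 0.0252 without FGF21 replicate 3 and 0.056 without control replicate 1. Uqcrfs1, the Rieske iron-sulfur protein, was at 7.29, 7.36 and 7.33 with FGF21 and 7.34, 7.25 and 7.40 without, and Cyc1, cytochrome c1, at 8.87, 8.87 and 8.79 with FGF21 and 8.85, 8.75 and 8.77 without. In both, the groups overlapped, with differences of 0.00 ± 0.07 (SE) and 0.05 ± 0.06 (SE). Uqcrc2, the other core protein, differed by -0.07 ± 0.06 (SE).

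The 4 small accessory subunits of complex III that had a row of their own all had differences above 0, with a median of 0.08. Of all genes, 47.8% were above 0. Uqcr10 had no such row. Uqcrb, which sits next to the ubiquinone site, was at 12.17, 12.30 and 12.31 with FGF21 and 12.03, 12.19 and 12.10 without, a difference of 0.15 ± 0.07 (SE) and an adjusted p of 0.455 by limma, with overlapping groups. Uqcrq differed by 0.08, Uqcr11 by 0.08 and Uqcrh, the hinge protein, by 0.07. Uqcrh was at -0.0101 without control replicate 1, the lowest array for 3 of these 4 genes. Of the 8 complex III genes, 0 reached an unadjusted p under 0.05 by limma, where 11.7% of all genes did.

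Complex IV, the cytochrome c oxidase, held 3 of the 4 genes with an unadjusted p under 0.05. That was 17.6% of its 17 genes, against 11.7% of all genes. Cox7b, a small membrane subunit, was at 10.98, 11.04 and 11.00 with FGF21 and 10.71, 10.87 and 10.88 without. All FGF21 arrays were above the controls, and the difference was 0.19 ± 0.07 (SE), a ratio with a 95% interval of 1.02 to 1.26 and an adjusted p of 0.347 by limma. A second, dimmer row of Cox7b differed by 0.21 ± 0.10. Without control replicate 1, the lowest array, the difference of the brighter row was 0.132.

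Cox6a2 encodes the heart and muscle form of subunit VIa. It was at 10.92, 10.93 and 10.90 with FGF21 and 11.21, 10.99 and 11.08 without, lower in all FGF21 arrays, with -0.18 ± 0.07 (SE) and an adjusted p of 0.385 by limma. Control replicate 1 was its highest array, and without that array the difference was -0.117. Cox6a1, the widely expressed form, was at 12.15, 12.10 and 12.08 with FGF21 and 12.25, 12.14 and 12.23 without, with overlapping groups and -0.10 ± 0.06 (SE).

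Cox6b2, known as the testis form of subunit VIb, stood at 6.24, 6.08 and 6.13 with FGF21 and 6.21, 6.34 and 6.48 without. The groups overlapped through FGF21 replicate 1 and control replicate 1, and the difference was -0.19 ± 0.08 (SE), with an adjusted p of 0.402 by limma. It was -0.125 without control replicate 3. Cox6b1, the widely expressed form, was at 10.89, 10.79 and 10.84 with FGF21 and 10.82, 10.83 and 10.68 without and differed by 0.06 ± 0.07 (SE).

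Subunit VIIa also has a widely expressed form and a heart form. The first, Cox7a2, was at 10.30, 10.32 and 10.29 with FGF21 and 9.98, 10.27 and 10.15 without; the FGF21 arrays lay above every control, and control replicate 1 was the lowest. The difference was 0.17 ± 0.08 (SE), with an adjusted p of 0.434 by limma, and 0.0985 without control replicate 1. Cox7a1, the heart and muscle form, was at 10.31, 10.42 and 10.31 with FGF21 and 10.17, 10.34 and 10.37 without, with overlapping groups and 0.05 ± 0.07 (SE), or -0.0127 without control replicate 1. Cox7a2l, which acts in assembling supercomplexes, differed by 0.06 (0.0102 without control replicate 1).

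For subunit VIII, the heart and muscle form Cox8b was at 9.90, 9.92 and 9.81 with FGF21 and 9.64, 9.89 and 9.88 without, and the widely expressed Cox8a at 11.48, 11.33 and 11.40 with FGF21 and 11.46, 11.50 and 11.57 without. Both overlapped, with 0.08 ± 0.08 (SE) for Cox8b, which was -0.0013 without control replicate 1, and -0.11 ± 0.07 (SE) for Cox8a. The testis form Cox8c was dim, at 4.60, 4.54 and 4.58 with FGF21 and 4.59, 4.61 and 4.56 without, and so was Cox7b2, the testis form of VIIb, with differences of -0.01 and -0.02.

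Subunit IV has a form, Cox4i2, known from lung and from cells in low oxygen. It was at 7.57, 7.75 and 7.81 with FGF21 and 7.61, 7.74 and 7.51 without, and the common form Cox4i1 at 10.04, 10.03 and 10.01 with FGF21 and 9.79, 10.06 and 10.01 without. The groups of each overlapped, with differences of 0.09 ± 0.09 (SE) and 0.07 ± 0.08 (SE). Cox4i1 was at -0.0108 without control replicate 1. Cox5a, a subunit on the matrix side, stood at 10.27, 10.16 and 10.06 with FGF21 and 10.17, 10.22 and 10.29 without, a difference of -0.06 ± 0.07 (SE); Cox5b differed by -0.0009 and Cox7c by -0.03.

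The upstream stretches of subunits VIIa and VIII are printed so that the heart forms can be set beside the common ones; for Cox6a2 no window was on hand. Each is the 250 bases before the start site (GRCm38.p6), 5′ to 3′ on the gene's strand. Any match to the 6 motifs that lies wholly inside these bases is in capitals, and matches after the start site are not shown. Cox7a1 and Cox7a2 each hold 1 match to the broad pattern CTANNNNTA in this stretch, where N is any base. Neither held the longer form with a further G. Cox8b holds 1 match to the HIF core, and Cox8a holds 0 that lie wholly inside the stretch. A GABP match of Cox8a starts 6 bases before the start site, runs past it and is not in capitals.
Cox7a1 (chr7:30183921-30184170, plus strand): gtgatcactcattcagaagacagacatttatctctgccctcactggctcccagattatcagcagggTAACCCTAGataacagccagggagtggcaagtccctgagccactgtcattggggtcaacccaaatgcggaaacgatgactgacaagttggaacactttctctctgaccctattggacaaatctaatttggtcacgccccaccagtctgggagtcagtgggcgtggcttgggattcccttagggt
Cox7a2 (chr9:79759854-79760103, minus strand): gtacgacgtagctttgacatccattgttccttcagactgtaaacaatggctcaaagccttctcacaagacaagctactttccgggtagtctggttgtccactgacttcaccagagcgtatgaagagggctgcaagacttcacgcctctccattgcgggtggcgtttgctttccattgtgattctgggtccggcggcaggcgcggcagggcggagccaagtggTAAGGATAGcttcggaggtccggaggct
Cox8b (chr7:140900447-140900696, minus strand): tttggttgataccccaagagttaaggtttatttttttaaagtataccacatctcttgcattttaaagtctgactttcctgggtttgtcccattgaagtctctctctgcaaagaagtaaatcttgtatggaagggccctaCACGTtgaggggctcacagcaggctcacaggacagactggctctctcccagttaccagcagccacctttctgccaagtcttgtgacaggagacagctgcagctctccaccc
Cox8a (chr19:7217617-7217866, minus strand): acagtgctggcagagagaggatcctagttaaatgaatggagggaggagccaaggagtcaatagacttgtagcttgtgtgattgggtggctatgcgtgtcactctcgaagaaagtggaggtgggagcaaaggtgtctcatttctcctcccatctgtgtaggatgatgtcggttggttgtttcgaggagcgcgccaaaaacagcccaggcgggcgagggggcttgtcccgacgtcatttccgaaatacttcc
G and C make up 51.2% of the Cox7a1 stretch and 54.8% of that of Cox7a2, and 47.2% for Cox8b against 52.8% for Cox8a.

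The forms of a subunit were also compared within arrays, as the log2 value of one form minus that of the other. The level of such a value depends on the probes, and only its difference between groups is read here. For Cox6a2 minus Cox6a1 the values were -1.23, -1.17 and -1.18 with FGF21 and -1.04, -1.15 and -1.15 without, a difference of -0.08 ± 0.04 (SE), with all FGF21 arrays lower. For Cox8b minus Cox8a they were -1.58, -1.41 and -1.59 with FGF21 and -1.82, -1.62 and -1.70 without, a difference of 0.19 ± 0.08 with all FGF21 arrays higher.

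For the remaining heart form, Cox7a1 minus Cox7a2 differed by -0.13 ± 0.05 (SE) with overlapping groups, Cox6b2 minus Cox6b1 by -0.26 ± 0.12 with all FGF21 arrays lower, and Cox4i2 minus Cox4i1 by 0.02 ± 0.13. The last turned to -0.0437 without FGF21 replicate 3 and -0.0684 without control replicate 3. In exact two-sided permutation tests over the 6 arrays, the p-values of the 5 pairs were 0.1 for VIa, VIII and VIb, 0.2 for VIIa and 0.8 for IV. Adjusted by Benjamini-Hochberg over the 5, the permutation p-values were 0.167, 0.25 and 0.8. With 3 arrays against 3 the smallest p possible is 0.10, so no pair could pass 0.05. The difference of VIa was -0.0409 without control replicate 1, and that of VIb -0.141 without control replicate 3. That of VIII was 0.129 without FGF21 replicate 2 and 0.13 without control replicate 1. With quantile normalization again, VIII was at 0.157 and VIb at -0.198, each with a permutation p of 0.2 and overlapping groups. In that setting VIIa was at -0.133, with a permutation p of 0.1.

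**Figure D3:**
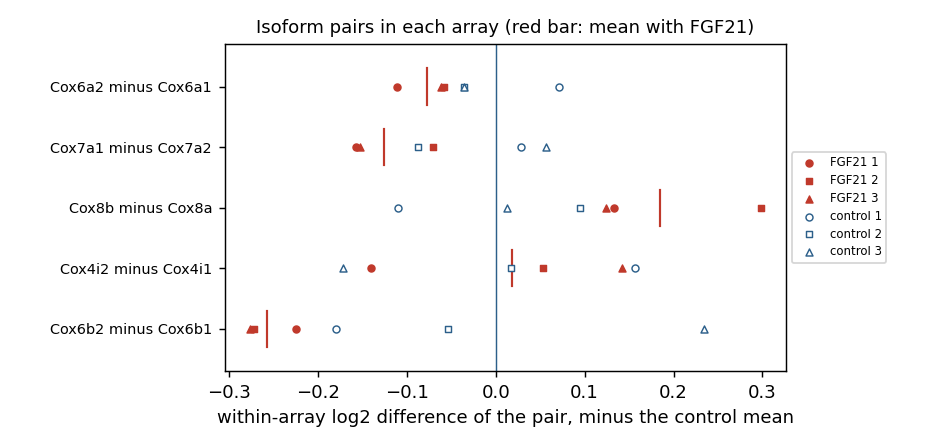
Within-array log2 difference of each pair of complex IV isoforms, minus the mean of the 3 controls; red symbols are FGF21 arrays, open blue symbols controls, and the red bar is the FGF21 mean. Groups are apart for 3 of 5 pairs, where 17.1% of all genes taken singly were apart. The mean of Cox8b minus Cox8a is 0.19 above the controls and that of Cox6b2 minus Cox6b1 below, at -0.26.

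The ATP synthase is made of the F1 head, which makes ATP, and the stalk and membrane part Fo, through which protons flow. Of its 17 genes, 0 reached an unadjusted p under 0.05 by limma, where 11.7% of all genes did. Atp5a1, the alpha subunit of F1, was at 11.65, 11.45 and 11.43 with FGF21 and 11.74, 11.58 and 11.61 without, a difference of -0.13 ± 0.08 (SE), with overlapping groups and control replicate 1 the highest array. Atp5b, the catalytic beta subunit, was at 12.56, 12.49 and 12.48 with FGF21 and 12.59, 12.55 and 12.51 without and differed by -0.04 ± 0.06 (SE). Atp5c1, the gamma shaft, was at 7.56, 7.50 and 7.55 with FGF21 and 7.40, 7.36 and 7.67 without, with 0.06 ± 0.09 (SE) and controls that spread more widely than the FGF21 arrays. The other F1 genes differed by -0.09 (Atp5d, delta) and 0.08 (Atp5e, epsilon), and the median of the 5 was -0.04.

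The 12 stalk and Fo genes had a median of 0.05, with 8 above 0, where 47.8% of all genes were. Atp5pb, the b subunit of the outer stalk, was the one gene here with groups apart, at 10.51, 10.60 and 10.55 with FGF21 and 10.31, 10.45 and 10.51 without. It differed by 0.13 ± 0.07 (SE), with an adjusted p of 0.51 by limma, and by 0.0741 without control replicate 1, its lowest array. Atp5mpl was at 10.50, 10.65 and 10.61 with FGF21 and 10.22, 10.59 and 10.38 without, a difference of 0.19 ± 0.09 (SE) with overlap through control replicate 2, and 0.0968 without control replicate 1. The genes for the proton-carrying c ring, Atp5g1, Atp5g2 and Atp5g3, which encode the same mature protein, differed by -0.08, -0.02 and 0.05. The other stalk and Fo genes, Atp5h, Atp5j, Atp5j2, Atp5k, Atp5l, Atp5o and Atp5md, ran from -0.05 for Atp5j2 to 0.11 for Atp5k.

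The pseudogenes have parents among these genes, and probes of such near-identical copies can share signal. Uqcrh-ps1 was at 3.74, 3.70 and 3.69 with FGF21 and 3.99, 3.82 and 3.95 without, lower in all FGF21 arrays, with -0.21 ± 0.07 (SE) (limma adjusted p of 0.31), whereas its parent Uqcrh differed by 0.07. Atp5c1-ps was at 4.80, 4.76 and 4.46 with FGF21 and 4.36, 4.51 and 4.60 without, a difference of 0.18 ± 0.10 (SE) with overlapping groups. Both were among the dimmest genes and are uncertain for that reason too. For the genes with 2 rows, both rows differed in the same direction: Atp5d by -0.09 and -0.07, Atp5e by 0.08 and 0.12, Atp5g2 by -0.02 and -0.05, and Atp5h by 0.03 and 0.07. Cox5b, whose second row was dim at 4.88 with FGF21, had -0.0009 and -0.03.

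Control replicate 1 stood apart for these genes. It was the lowest of the 6 arrays for 20 of 48 (41.7%), where it was lowest for 18.3% of all genes and 29% of the brightest 20%. It was the highest for 8 of 48 (16.7%), against 19.6% of all genes and 20.3% of the brightest 20%. Against the mean of the other controls it was lower for 33 of 48 genes, for 11355 of all 22180 and for 2152 of the 4436 brightest. The median was -0.09 for the 48 genes, where all genes had -0.00. The stalk and Fo genes had a median of -0.13 by this measure, with control replicate 1 the lowest array for 8 of 12, and the accessory genes of complex III also -0.13. The F1 genes had 0.06 and the core genes of complex III 0.05. The 32 complex I genes had their lowest value in this array in 21 cases. The same array had the highest list mean of cardiomyocyte markers, 10.95 against 10.79 to 10.85 in the other arrays, and of endothelial markers, 7.64. Without it the median over the 48 genes was -0.01 in place of 0.04, and 23 of 48 differences were above 0. Of all 6 arrays, it was the one whose loss moved that median most.

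**Figure D4:**
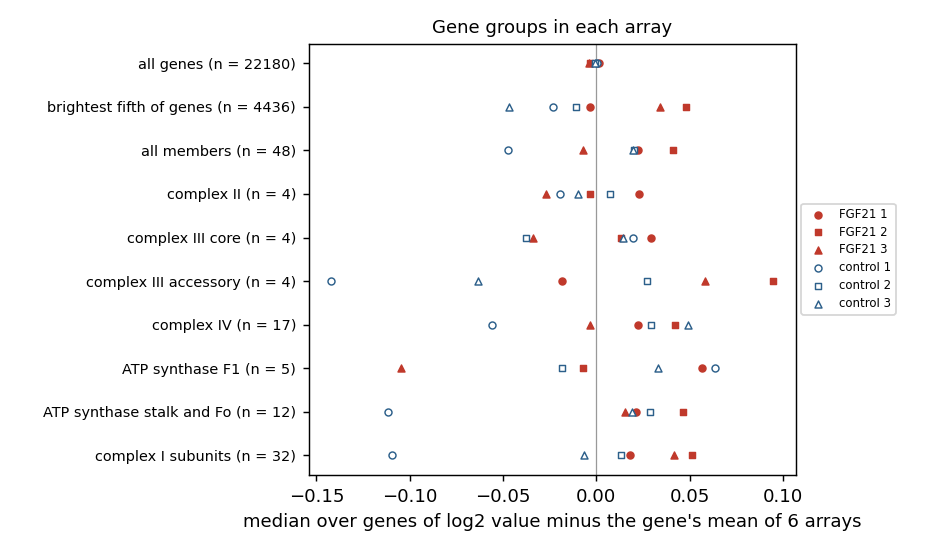
Median over the genes of a group of log2 value minus the gene's own mean over the 6 arrays, for each array. Red filled symbols are FGF21 arrays and open blue symbols controls; for the 12 stalk and Fo genes and the 32 complex I genes, control replicate 1 lies at -0.11 while the other arrays lie between -0.01 and 0.05.

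Genes that build or steer these complexes were read from lists. Of 20 measured complex IV assembly genes, 2 were higher and 0 lower at an unadjusted p under 0.05. That was 10%, against 11.7% of all genes. The 2 were Cox20, a chaperone of a mitochondrially made subunit, at 0.21 ± 0.08 (SE), and Coa3, an assembly factor of another, at 0.29 ± 0.12 (SE). The list had a median of 0.05. Complex II assembly had 1 of 4 higher (25%), Sdhaf1, at 0.32 ± 0.12 (SE). For complex III 0 of 6 and for complex V 0 of 3 assembly genes reached that p by limma, with medians of 0.13 and 0.05. All 6 of the complex III list had differences above 0, where 47.8% of all genes did. Among the 6, Lyrm7, a chaperone of the Rieske protein, was at 0.14 ± 0.07 (SE) and Bcs1l at 0.20 ± 0.10 (SE). Control replicate 1 was the lowest array for all 6 of these, with a list mean of 6.69 against 6.86 to 6.95 in the other arrays, and its part in the differences was not tested. Of these lists, 0 genes passed over all genes, where the limma adjusted p was 0.344 for Sdhaf1, 0.363 for Cox20 and 0.384 for Coa3.

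Of 8 other genes tied to the chain, 1 was higher at an unadjusted p under 0.05 (12.5%, against 11.7% of all genes). It was Higd1a, which hypoxia induces and which binds complex IV, at 0.18 ± 0.07 (SE). Cycs, cytochrome c, differed by 0.14 ± 0.07 (SE), and Lonp1, the matrix protease, by 0.10 ± 0.07 (SE). For Higd1a, Cycs and Lonp1 alike, all FGF21 arrays lay above the controls. That held for 4 of the 8 genes (50%, against 8.99% of all genes). Among 17 nuclear regulators, 1 was higher and 1 lower by that criterion (11.8%, against 11.7% of all genes). Rbpj, a DNA-binding protein of Notch signalling, was at 9.62, 9.65 and 9.71 with FGF21 and 9.45, 9.36 and 9.25 without, with 0.31 ± 0.07 (SE) and a limma adjusted p of 0.192; Sp1 was at -0.15 ± 0.07 (SE). Nrf1, the gene of the factor whose motif was searched, differed by 0.13 ± 0.08 (SE).

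Related genes of energy metabolism are given for comparison. The 32 measured nuclear subunits of complex I had a median of 0.08. At an unadjusted p under 0.05, 3 genes were higher and 0 lower (9.38%, against 11.7% of all genes). They were Ndufa2 at 0.27 ± 0.10 (SE), Ndufb6 at 0.16 ± 0.07 (SE) and Ndufa12 at 0.14 ± 0.06 (SE). Of 12 TCA cycle genes, 0 reached that p by limma, and the median was -0.02. The differences between these lists were not tested.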

How the data were processed

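Total RNA of 6 samples, 500 ng each, was labelled and hybridised to Affymetrix Mouse Gene arrays, per the labels' protocols. The authors deposited log2 values made by RMA in R 3.2.2 and affy, as the submitters' processing notes list; for the chip definition and genome build, the sources used here give nothing. RMA equalises arrays and compresses differences of dim genes. The table held 41345 rows; 23521 had 1 gene symbol in the platform annotation, 1814 several and 16010 none there. The number of arrays limits the precision. Array medians ran from 5.76 to 5.83, and array pairs correlated at 0.993 to 0.997.

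The brightest row of each of 22180 genes was fitted with limma 3.58.1 in R 4.3.3 (lmFit, eBayes, no covariate, two-sided), with Benjamini-Hochberg adjustment over all genes and a threshold of 0.05. The fit was tested on simulated data. Subunit genes and gene lists were chosen with earlier results of these data known, and support nothing beyond their values. Values per array were given by rule for genes at an unadjusted p under 0.05, isoform pairs, complex II and 8 core subunits. Uqcrb, Cox8c, Atp5pb, Atp5mpl, Atp5c1-ps and Rbpj were added after their values were seen. Of each related list, up to 3 genes of smallest p were named, and Myh6 and Tnnt2 as defining markers. Promoter motifs were searched after the values were seen. Alternatives were a replicate block, each array left out, median centring, quantile normalization again, the mean of rows, dim genes left out, another variance prior and array weights. Of the lists, the fibroblast markers had a median difference of -0.03, smooth muscle -0.00, leukocyte 0.03 and skeletal muscle -0.04, and the 1 red cell marker measured, Epb42, was at -0.21.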

Additional observations from a re-analysis of the deposited data

How the results depend on the processing

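No subunit gene passed limma's adjusted p of 0.05 in any of the 13 alternatives run. The count over all genes, 0, was 0 to 2 with 1 array left out, 2 with median centring, 2 with the mean of all rows, 2 with array weights, 5 with quantile normalization again, 16 with the trended, robust prior, and 58 once dim genes were left out, which tests fewer genes. The subunit genes at an unadjusted p under 0.05, 4, were 1 to 6 with 1 array left out (7.71% to 13.7% of all genes) and 9 with the trended, robust prior (18.8%, against 11.7% of all genes). Those whose groups did not overlap, 7, were 10 to 20 with 1 array left out, where 24% to 32.8% of all genes did so. Their median ran from -0.00543 to 0.0459 with 1 array left out and was 0.00663 with quantile normalization again. Cox4i2 minus Cox4i1 ran from -0.0684 to 0.0972 and was -0.000514 with quantile normalization again. Where not stated, the cause was not tested.

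Of the 48 differences, 31 kept their sign in every alternative that held the gene. With dim genes left out, only 42 of the 48 were run. By design, that setting, the replicate block and the trended, robust prior leave each difference unchanged. The mean of rows can change only the 6 genes with 2 rows, so sign is informative in the remaining alternatives. With median centring, Atp5g2 was 0.000912, Atp5o 0.00195, Cox5b 0.0191, Cox8c 0.00818 and Uqcrc1 0.00788. With quantile normalization again, Cox8c was 0.0172, Cyc1 -0.000451 and Uqcrfs1 -0.0389, and with array weights Cox7c was 0.00273. With 1 array left out, ranges that crossed 0 were -0.0538 to 0.00958 for Atp5g2, -0.149 to 0.0375 for Atp5j2, -0.0232 to 0.207 for Atp5k, -0.0511 to 0.117 for Atp5l, -0.0497 to 0.0381 for Atp5o, -0.0108 to 0.127 for Cox4i1, -0.0425 to 0.0653 for Cox5b, -0.0127 to 0.0855 for Cox7a1, -0.0632 to 0.0213 for Cox7b2, -0.0818 to 0.0661 for Cox7c, -0.0013 to 0.12 for Cox8b, -0.0259 to 0.00359 for Cox8c, -0.0875 to 0.0248 for Sdha, -0.0718 to 0.056 for Uqcrc1, -0.0403 to 0.0377 for Uqcrfs1, -0.0101 to 0.116 for Uqcrh.

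The replicate numbers were not taken to pair the arrays, because the labels do not say that they do. Arrays of the same number had correlations of their deviations of 0.103, 0.158 and 0.00653. FGF21 replicates 1 and 2 correlated best with the control of their own number, and FGF21 replicate 3 with control replicate 2 (0.0218). With so few arrays, these correlations cannot decide whether the arrays are paired. With the replicate block, 6 subunit genes had an unadjusted p under 0.05 (13.1% of all genes did), and the smallest adjusted p of limma among the 48 was 0.274.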
